A study of Mus musculus with 16 samples.

Results

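The mouse heart builds its atria and ventricles from cardiomyocytes that use partly different genes. This report describes 6 genes known from atrial muscle or the atrial wall, namely Myl7, Myl4, Sln, Nr2f2, Bmp10 and Dkk3, in samples of the left ventricle. Every probe set annotated with 1 of these symbols alone was taken, which gave 14 of 45101 probe sets and 6 of 18193 genes. The genes were chosen with their signals on these same 16 arrays already known, so their levels, their group differences and their correlations with each other are given as a description, with no test. Of the 6 genes, 4 (Myl7, Myl4, Sln and Nr2f2) were among the 10916 genes bright enough to be tested, and Bmp10 and Dkk3 were below that limit.

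The mice were wild type (WT) or lacked PPARalpha (KO), a nuclear receptor that switches on genes of fatty acid use. Under TAC (transverse aortic constriction) the aorta is narrowed and the left ventricle pumps against a raised pressure, and the control operation was a sham. The interval between operation and sampling was 28 days. Arrays numbered 1 to 4 in the labels stood for each combination of genotype and operation, 4 groups in all (WT sham and WT TAC, then KO sham and KO TAC). The labels give no strain, sex, age or number of animals per array, and do not say whether the deletion of PPARalpha is present in all cells. If the replicates are not separate animals, p-values measure a technical spread.

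The atria carry their own set of sarcomere and calcium proteins. Myl7 encodes the regulatory light chain and Myl4 the essential light chain of atrial myosin, the counterparts of Myl2 and Myl3 in the ventricle. Sln encodes sarcolipin, a small membrane peptide that restrains the calcium pump of the sarcoplasmic reticulum. Nr2f2 (COUP-TFII) is a nuclear receptor that sets atrial identity in cardiomyocytes and is also made in venous endothelium. Bmp10 is a secreted ligand of the adult atrium that signals through the receptor Acvrl1, and Dkk3 is a secreted protein of the Dickkopf family.

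The bases before the annotated gene start are shown for 2 light chain genes that varied together and for Bmp10, which did not follow them on all arrays. They come from RefSeq (GRCm38.p6), cover 250 bases each, and run 5′ to 3′ on the strand of the gene. Capitals mark a match to 1 of 5 motifs searched on both strands.

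Myl7, chr11:5898783-5899032, minus strand: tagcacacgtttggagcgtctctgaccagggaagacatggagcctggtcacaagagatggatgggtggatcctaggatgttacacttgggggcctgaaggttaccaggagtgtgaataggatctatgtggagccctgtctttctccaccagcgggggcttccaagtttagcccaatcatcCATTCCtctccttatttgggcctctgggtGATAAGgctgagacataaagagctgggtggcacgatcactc

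Myl4, chr11:104550413-104550662, plus strand: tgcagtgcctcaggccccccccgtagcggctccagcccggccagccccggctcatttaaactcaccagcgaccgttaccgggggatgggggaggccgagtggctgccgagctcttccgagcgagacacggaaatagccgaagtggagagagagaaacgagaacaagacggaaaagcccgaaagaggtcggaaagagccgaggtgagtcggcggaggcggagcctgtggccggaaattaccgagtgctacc

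Bmp10, chr6:87428744-87428993, plus strand: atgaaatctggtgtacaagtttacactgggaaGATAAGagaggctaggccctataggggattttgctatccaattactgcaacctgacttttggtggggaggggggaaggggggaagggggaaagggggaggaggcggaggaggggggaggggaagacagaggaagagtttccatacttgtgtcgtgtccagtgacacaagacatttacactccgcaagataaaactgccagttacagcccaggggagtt

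A first motif was CATTCC, the M-CAT element of TEAD factors. A second was GATAAG, the site of GATA factors. The nuclear receptor half-site AGGTCA was searched as well. So was AGGTGT, a site of T-box factors. The last was the TATA box, spelled TATAAA. The Myl7 window held CATTCC at 70 and GATAAG at 41 bases before the start, and the Bmp10 window held GATAAG at 218 bases before it. No match overlapped another. Among the same windows of 32851 annotated promoters, 12.6% held CATTCC and 6.55% held GATAAG. The other 3 motifs were each found in between 11.8% and 14% of the promoters. The Myl4 window lies inside the annotated span of the gene (chromosome 11, 104546017 to 104587215) and held no match, and neither did the Nr2f2 window. These are matches of letters and are not evidence of binding.

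Myl7, the atrial regulatory light chain, had a signal of 446.5, 3427, 1970.5 and 74.4 in WT sham replicates 1 to 4. In WT TAC the signals were 785.2, 12.5, 212.1 and 41.7. In KO sham they were 887.4, 466.7, 2625.6 and 12058.1, and in KO TAC 1871.3, 486.8, 2116.6 and 160. The array with the most Myl7 signal, KO sham replicate 4, therefore stood 965-fold above the array with the least, WT TAC replicate 2. All 4 groups overlapped each other, and within WT sham alone the highest array was 46.1-fold above the lowest. In a bulk sample, fewer atrial cells and less of the RNA per cell cannot be told apart.

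Myl4, the atrial essential light chain, was measured by a bright probe set with signals of 721.3, 3103.2, 1890.5 and 332.9 in WT sham. WT TAC gave 908, 235.3, 474.3 and 325.7. KO sham gave 1769, 737.2, 2279.4 and 8450.9, and KO TAC gave 2100.8, 830.8, 2320.8 and 462.7. The lowest and highest arrays were the same as for Myl7, with a smaller span of 35.9-fold. A second, less bright Myl4 probe set ranged from 35.5 to 328.5 and had a correlation of 0.01 with the mean of Myl7, Sln and Nr2f2 over the 16 arrays.

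Sln, the sarcolipin gene, was as variable as Myl7. Its brighter probe set gave 157.9, 1598.5, 870 and 7.8 in WT sham, and 380.4, 5.8, 34.6 and 7.2 in WT TAC. KO sham gave 597.8, 118.4, 1142.2 and 5816.3, and KO TAC gave 650.1, 157.6, 793.9 and 129.9. KO sham replicate 4 was again highest. WT sham replicate 4 and WT TAC replicates 2 and 4 lay under the floor of 11.9 to which low values were raised, so they have no order among themselves, and the highest array stood at least 489-fold above them. The second Sln probe set stayed between 7.4 and 113 and had a correlation of 0.37 with the other tested genes of the set, or 0.00 without the 2 arrays of most extreme atrial signal, WT TAC replicate 2 and KO sham replicate 4.

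Myl7, Myl4 and Sln put the arrays of each group in the same order, apart from the Sln values below the floor. From high to low, the order was replicates 2, 3, 1 and 4 in WT sham and 1, 3, 4 and 2 in WT TAC. It was 4, 3, 1 and 2 in KO sham, and 3, 1, 2 and 4 in KO TAC. The 3 genes lie at separate places in the genome. Myl7 is on chromosome 11 (5896637 to 5898782), far from Myl4 on the same chromosome, and Sln is on chromosome 9 (53850251 to 53853849).

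**Figure D1:**
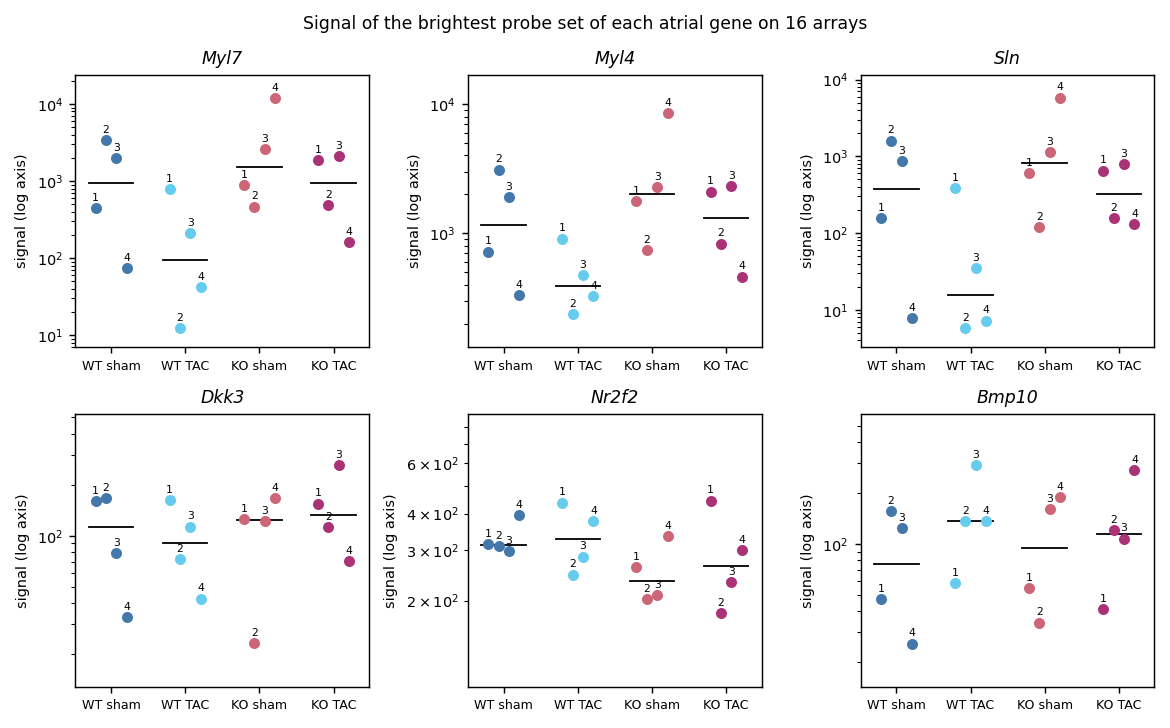
Signal of the brightest probe set of each gene (log axis) on each array, numbered by replicate, with a line at the median of the log signals of each group. Myl4 spans 35.9-fold, Myl7 965-fold and Sln at least 489-fold over the 16 arrays, in a shared order within groups apart from the Sln values below the floor, while Nr2f2 spans 2.45-fold.

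Nr2f2, the transcription factor of the set, varied far less. Its brightest probe set gave 313.8, 307.9, 297.2 and 395.7 in WT sham, and 436.8, 245.8, 284 and 377.8 in WT TAC. KO sham gave 260.4, 202.8, 209.2 and 334.2, and KO TAC gave 443.6, 180.9, 232.1 and 299.2. The whole range was 2.45-fold, and no group had the arrays in the order of Myl7. WT sham replicate 4 and WT TAC replicate 4, which were low in Myl7, were the highest and the second highest of their groups in Nr2f2. In WT TAC and in KO sham, however, Nr2f2 and Myl7 had the same highest array and the same lowest array. A second probe set ranged from 109.2 to 213.7, and the other 4 Nr2f2 probe sets were dim.

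Bmp10, the atrial ligand, gave dim signals of 46.9, 156.6, 124.5 and 25.7 in WT sham, and 58.8, 136.1, 293.8 and 136.7 in WT TAC. KO sham gave 55, 34.2, 161.3 and 188.5, and KO TAC gave 41, 120.6, 107.5 and 272.5. In both sham groups Bmp10 put the arrays in the order of Myl7, and in both TAC groups it did not. The replicate with the most Myl7 in WT TAC, number 1, had the least Bmp10 of that group, and the replicate with the least Myl7 in KO TAC, number 4, had the most. Bmp10 spanned 11.4-fold over all arrays.

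Dkk3, the secreted Dickkopf relative, gave 159.6, 167.1, 78.7 and 33.3 in WT sham, and 162.3, 72.7, 113.3 and 42.6 in WT TAC with its brighter probe set. KO sham gave 125.8, 23.2, 122.1 and 166.1, and KO TAC gave 154.7, 112.2, 261.3 and 71.2. The span was 11.3-fold, the lowest array was KO sham replicate 2 and the highest KO TAC replicate 3. Its order matched that of Myl7 in 1 of 4 groups, although the top array of each group was the same for both genes. The other Dkk3 probe set ranged from 22.7 to 228.7.

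Deviations of log2 signal from the group mean show how the genes moved together inside the groups. Over 16 arrays, Pearson's r was 0.946 for Myl7 with Myl4, 0.946 for Myl7 with Sln and 0.946 for Myl4 with Sln, with Spearman's rho of 0.947, 0.964 and 0.946. Without the 2 arrays of most extreme atrial signal, r was 0.963, 0.959 and 0.939. The points share arrays, and so any property of an array that touches all probe sets enters them.

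Dkk3 moved with these 3 genes, with r of 0.757 for Myl7, 0.788 for Myl4 and 0.811 for Sln. Leaving out the 2 extreme arrays gave 0.783, 0.783 and 0.797. The second Dkk3 probe set had r of 0.597 with the mean of the 4 tested genes, against 0.790 for the brighter one.

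Nr2f2 and Bmp10 stood apart from that pattern. The brightest Nr2f2 probe set had r of 0.281 with Myl7, 0.307 with Myl4 and 0.256 with Sln. Without the 2 extreme arrays these were -0.04, 0.04 and 0.03. The second Nr2f2 probe set had the other sign, with r of -0.20, -0.21 and -0.24, or -0.64, -0.64 and -0.57 without the 2 extreme arrays. Bmp10 had r of 0.278, 0.333 and 0.355 with the same genes. Nr2f2 and Bmp10 were at r = -0.307 with each other.

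**Figure D2:**
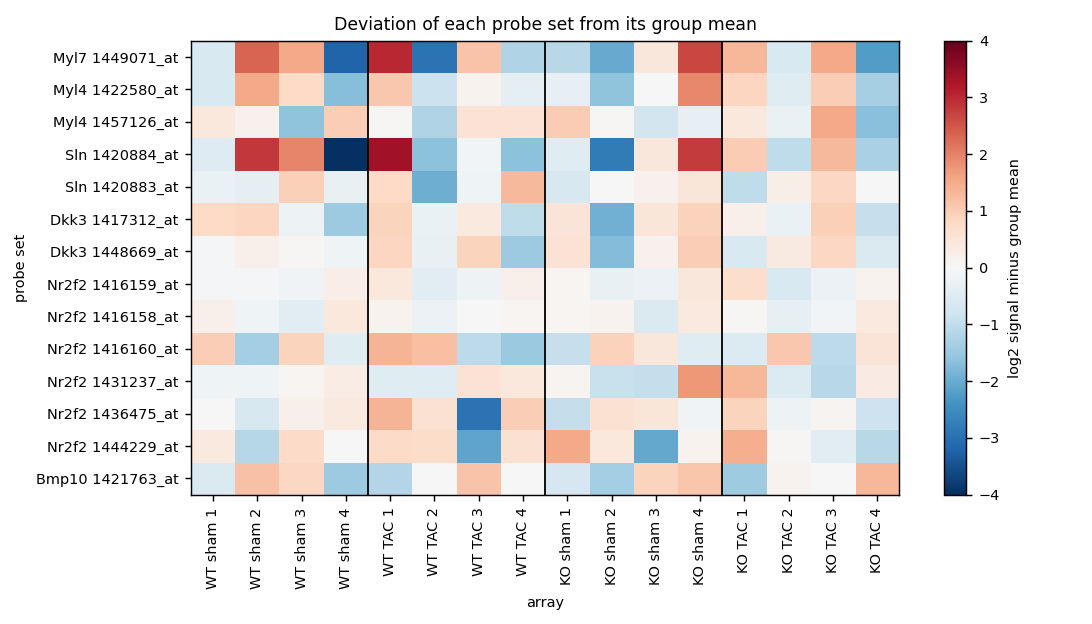
Heat map of log2 signal minus the group mean for 14 probe sets (vertical) on 16 arrays (horizontal), with black lines between the groups and colour from -4 (blue) to 4 (red). Columns of red or blue run through Myl7, the upper Myl4 and Sln rows and Dkk3 and are not seen in the Nr2f2 probe sets.

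**Figure D3:**
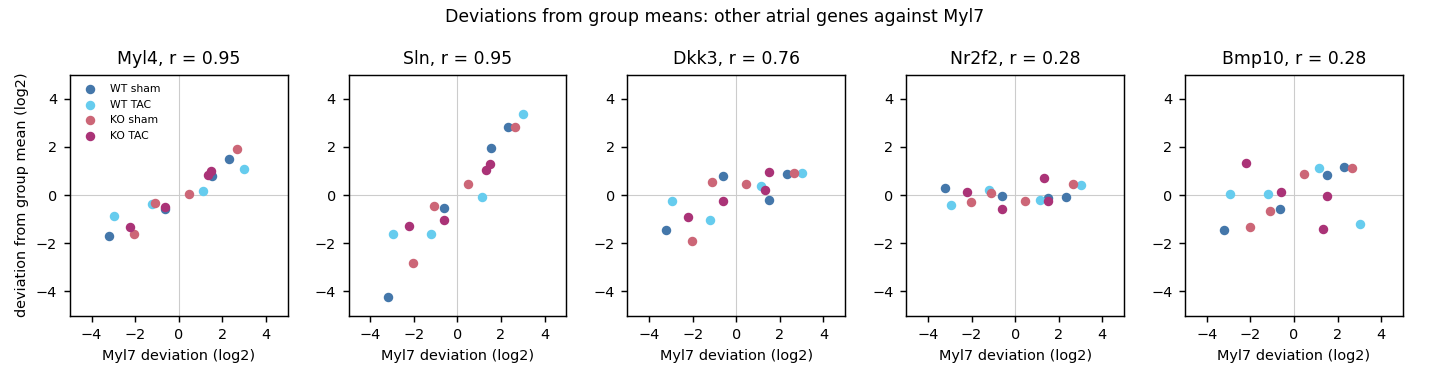
Deviation of the log2 signal from the group mean for 5 genes (vertical) against that of Myl7 (horizontal), 1 point per array, coloured by group. Myl4 and Sln follow Myl7 closely in every group (both r 0.95), Dkk3 less closely (0.76), and Nr2f2 and Bmp10 have r of 0.28.

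The spread inside the groups set the light chain and sarcolipin genes apart from nearly all others. The pooled within-group SD of log2 signal was 2.39 for Sln and 2.25 for Myl7, the highest and second highest of the 10916 genes tested. The next gene had an SD of 1.74. Myl4, with 1.24, ranked 23, and Nr2f2, with 0.39, ranked 2509. The median gene had an SD of 0.25, and the 99th percentile was 1.06. Bmp10 (1.13) and Dkk3 (1.02) had large spreads too, but were too dim to be ranked. Group membership accounted for 39.2% of the variance of Myl7, 38.8% of that of Myl4 and 38.2% of that of Sln, so most of their variance lay between arrays of the same group. The figure was 21.5% for Nr2f2, 11.7% for Bmp10 and 7.92% for Dkk3, and 24.9% for the median gene tested.

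**Figure D4:**
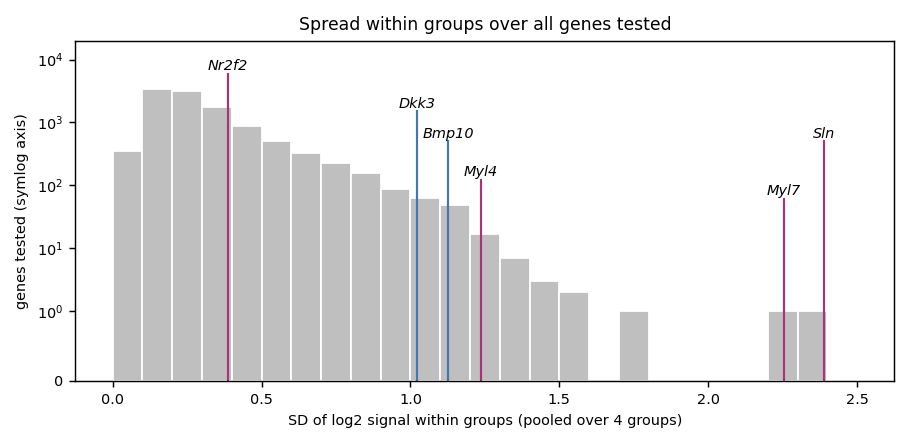
Number of tested genes (vertical, linear below 1 and logarithmic above) by the SD of log2 signal within groups (horizontal), with vertical lines at the tested genes Myl7, Myl4, Sln and Nr2f2 (purple) and at Dkk3 and Bmp10, which were too dim to be tested (blue). Sln at 2.39 and Myl7 at 2.25 lie beyond the other tested genes.

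With so wide a spread, the group means of these genes carry a large error. For Myl7, WT sham had a mean log2 signal of 9.43 ± 2.47 (SD, n = 4) and WT TAC one of 6.59 ± 2.62. The mean was 10.89 ± 2.05 for KO sham and 9.54 ± 1.76 for KO TAC. The order of the means was KO sham, KO TAC, WT sham and WT TAC, and neighbours in that order differed by less than their SDs except the last pair, whose difference (WT TAC minus WT sham) of -2.83 was larger than both SDs. Myl4 had means of 10.09 ± 1.44, 8.74 ± 0.84, 11.13 ± 1.46 and 10.19 ± 1.11 in the groups as first listed. Sln had means of 7.82 ± 3.17, 5.21 ± 2.36, 9.69 ± 2.33 and 8.32 ± 1.35. With the brightest probe set of each of the 3 genes, WT TAC was lowest and KO sham highest. The second Sln probe set had the reverse, with a mean of 5.52 in WT TAC and 4.42 in KO sham. The second Myl4 probe set was lowest in KO TAC (6.82) and highest in KO sham (7.35).

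The log2 difference of KO from WT in sham was 1.47 for Myl7, 1.04 for Myl4 and 1.87 for Sln. In TAC it was 2.95, 1.46 and 3.12. The difference of TAC from sham was -2.83, -1.35 and -2.61 in WT and -1.35, -0.94 and -1.37 in KO. The values depended on the choice of probe set and on single arrays. Taken alone, the dim second Sln probe set had the opposite signs. It had -0.33 and -0.69 for KO minus WT in sham and TAC. For TAC minus sham it had 0.77 in WT and 0.40 in KO. The second Myl4 probe set had 0.34 and -0.42, then 0.23 and -0.53, in the same order. With probe sets averaged, KO minus WT was 0.77 in sham and 1.21 in TAC for Sln, and 0.69 and 0.52 for Myl4. TAC minus sham in WT was then -0.92 for Sln and -0.56 for Myl4, and in KO it was -0.48 for Sln. For Myl7, leaving out WT TAC replicate 2 gave 1.97 for KO against WT in TAC and -1.85 for TAC in WT. For TAC in WT, Sln had -4.03 without WT sham replicate 4 and -1.67 without WT sham replicate 2, and Myl4 had -0.85 without the latter. For Myl7 in sham, leaving out WT sham replicate 4 gave 0.40 and leaving out WT sham replicate 2 gave 2.24. For Sln in sham, the same omissions gave 0.46 and 2.81, and for Myl4 the difference was 0.40 without KO sham replicate 4 and 1.57 without KO sham replicate 2. In KO, the differences of TAC from sham were -0.46 for Myl7, -0.30 for Myl4 and -0.43 for Sln without KO sham replicate 4.

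Differences of the other genes were smaller. Nr2f2 was at -0.41 for KO against WT in sham and -0.26 in TAC, but at 0.24 and 0.13 when its 6 probe sets were averaged, and TAC minus sham was 0.00 in WT and 0.15 in KO. Bmp10 gave 0.32 and -0.29 for KO against WT in sham and TAC, and 0.94 and 0.34 for TAC against sham in WT and KO. Dkk3 gave -0.06, 0.63, -0.07 and 0.61 in the same order. Its value of 0.61 for TAC in KO was -0.03 without KO sham replicate 2. Most of these signs turned when 1 array was left out. Bmp10 had -0.16 in sham without WT sham replicate 4, 0.19 in TAC without KO TAC replicate 1, and -0.11 for TAC in KO without KO sham replicate 2. Dkk3 had 0.58 in sham without KO sham replicate 2 and 0.27 for TAC in WT without WT TAC replicate 4. Nr2f2 had -0.08 for TAC in KO without KO TAC replicate 1.

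None of the 14 probe sets separated the groups in any of the 4 comparisons. Of all genes tested, groups did not overlap for 5.91% in KO against WT in sham, 9.55% in KO against WT in TAC, 4.28% in TAC against sham in WT and 10.8% in TAC against sham in KO. At an adjusted p under 0.05 (limma, Benjamini-Hochberg over 10916 genes), the fit called 0 of the 4 tested genes of the set in each comparison. Of all genes it called 0.742% for KO against WT in sham, 2.46% in TAC, and 2.57% for TAC against sham in KO. For TAC against sham in WT it called 0%, with 832 genes at an unadjusted p under 0.05, and for the interaction, the difference between the TAC responses of KO and WT, it also called 0%, with 1128 genes. Since the genes were chosen with these arrays known, nothing is read from those shares.

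An atrial index was formed for each array as the mean over Myl7, Myl4, Sln and Nr2f2 of the log2 signal minus its mean over the 16 arrays. WT sham replicates 1 to 4 had an index of -0.30, 1.79, 1.18 and -2.08, and those of WT TAC 0.42, -3.02, -1.30 and -2.31. KO sham replicates had 0.68, -0.54, 1.32 and 3.10, and KO TAC replicates 1.24, -0.42, 1.16 and -0.92. The 4 lowest arrays were all WT, and 3 of them were WT TAC. The WT groups had means of 0.15 ± 1.72 (SD, n = 4) for sham and -1.55 ± 1.49 for TAC, and the KO groups 1.14 ± 1.52 and 0.26 ± 1.10. The differences were 0.99 for KO against WT in sham and 1.82 in TAC, and -1.70 and -0.88 for TAC against sham in WT and KO, beside a pooled SD within groups of 1.47. With the probe sets of each gene averaged, they were 0.61 and 1.00, then -0.70 and -0.30. Over single arrays left out, the sham difference went from 0.25 (without WT sham replicate 4) to 1.55 (without KO sham replicate 2), and that of TAC in KO from -1.44 to -0.22 (without KO sham replicates 2 and 4). Each of these values is built from the genes above and adds no independent support.

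Measures of array quality were set beside the index. Within groups, it had r of 0.165 with the median log2 signal of the array, 0.164 with the mean log2 signal of the hybridisation spike-ins, -0.095 with the 3' to 5' ratio of Gapdh and 0.121 with that of actin. The exact permutation p for r, permuting arrays within groups, was 0.569, 0.534, 0.777 and 0.686, and the adjusted p was 0.777 for all 4, while rho was 0.221, 0.147, -0.076 and -0.112 with an adjusted p of 0.815 for all 4. Without the 2 extreme arrays r was -0.01, -0.02, -0.24 and -0.14. Array medians ranged from 108.3 to 163, and Ppara, the deleted gene, was lower in all KO arrays (388.1 to 727.1) than in all WT arrays (1384.9 to 2307.6).

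Ventricular genes were set beside the atrial genes, though their signal cannot show how much atrial tissue a sample held. Of 9 ventricular genes listed, 7 were tested. Myl2, the ventricular regulatory light chain, had signals of 63089 to 140526 on the 16 arrays. The summed signal of the ventricular list was 149003 to 175175 for WT sham and 184828 to 269702 for WT TAC. It was 163762 to 191998 for KO sham and 133728 to 177669 for KO TAC. Myl2 and Myl3 made up most of each sum. WT TAC, with the lowest atrial index, reached the highest sums, but the list did not rise as a whole. For TAC against sham in WT, 4 of the 7 tested genes had a positive difference. Kcnd2 (-0.42), Irx4 (-0.22) and Kcnip2 (-0.13) had a negative one. The part of these genes in the index was not tested. In comparisons that called at most 2.57% of all genes, none of the ventricular genes was called. Among them, Myl2 had the smallest p for KO against WT in TAC (-0.48 ± 0.14, standard error (SE) of the moderated fit, limma adjusted p = 0.103), TAC in WT (0.46 ± 0.14, adjusted p = 0.58) and the interaction (-0.66 ± 0.20, adjusted p = 0.337). The Myl2 value for KO against WT in TAC passed with trend and robust (adjusted p = 0.0301). It was -0.08 with quantile normalization (adjusted p = 0.662), -0.28 with arrays centred on medians and -0.17 with 3 arrays omitted whose spike-in signals were extreme. With quantile normalization Myl2 had 0.08 for TAC in WT and -0.08 for the interaction, so its differences depended on the scaling. For KO against WT in sham it was Kcnd2, a potassium channel subunit (-0.31 ± 0.17, adjusted p = 0.65), and for TAC in KO Kcnip2, a partner of that channel (-0.49 ± 0.13, adjusted p = 0.0736). Kcnip2 had an adjusted p of 0.0267 with trend and robust, and -0.24 with probe sets averaged (adjusted p = 0.777).

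None of the other tested genes of atrial muscle had a correlation with the index that passed the test. Of 19 listed, 14 had a probe set of their own and 9 were bright enough to test. With the index, Nppa, the gene of atrial natriuretic peptide, had r of 0.03, and Stard10, Kcnj3, Kcnj5 and Tbx5 had r of 0.28, 0.28, 0.25 and 0.13. Kcna5, an atrial potassium channel, had r of -0.34 (exact permutation p = 0.214). Kcnk3, Hey1 and Pam had r of -0.20, -0.20 and 0.11. Among 7 ventricular genes, r ranged from -0.30 for Irx4 to 0.23 for Kcnd2, with -0.18 for Myl2 and -0.09 for Myl3. The smallest Benjamini-Hochberg adjusted p over these 16 genes was 0.749 for r and 0.862 for rho, by the exact permutation test within groups.

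**Figure D5:**
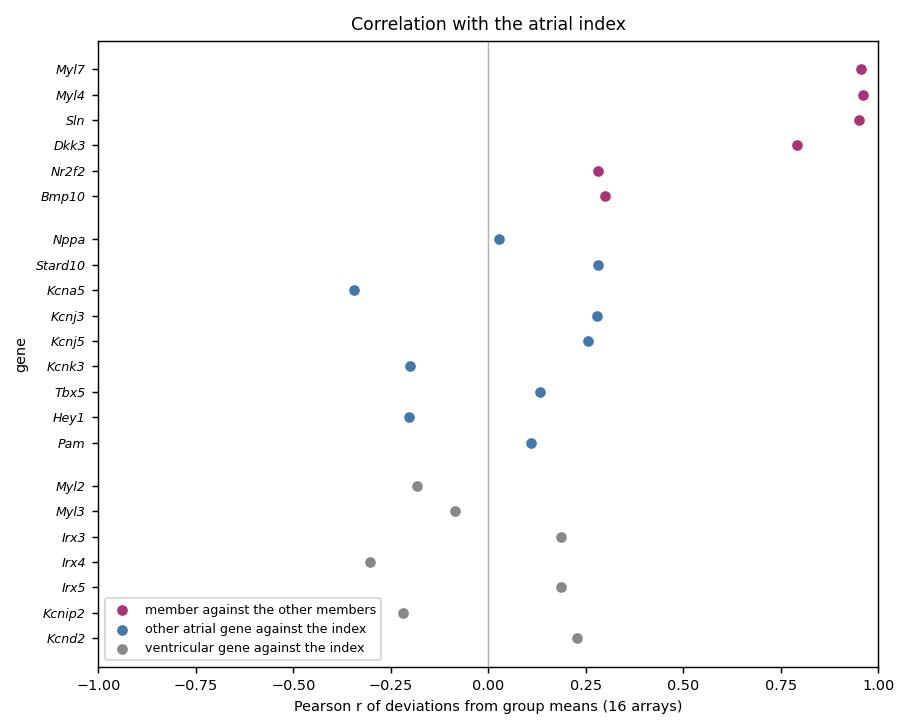
Pearson r of deviations from group means over 16 arrays (horizontal) for each gene (vertical), for the 6 atrial genes of the set against the mean of the other tested ones (purple), other atrial genes against the atrial index (blue) and ventricular genes against the index (grey). Myl7, Myl4 and Sln lie at 0.95 or above and Dkk3 at 0.79, while the genes outside the set lie between -0.34 and 0.28.

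The atrial genes that were too dim to be tested included Mybphl and Cacna1g, whose highest arrays were both KO sham replicate 4. Mybphl, a myosin binding protein of atrial and conduction muscle, ranged from 13.2 to 814.8 and had r of 0.39 with the index, or 0.18 without the 2 extreme arrays. Cacna1g, a T-type calcium channel, ranged from 9.1 to 278.3 with r of 0.31, or 0.18 without them. Gja5, the atrial and conduction connexin, stayed between 4.8 and 16.9. Cacna1d and Nr2f1 had r of 0.17 and -0.10.

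In the group comparisons, Nppa was the 1 atrial gene outside the set that was called higher. Its signals went from 15481.6 to 23587.7 for WT sham and from 32398.1 to 48346.4 for WT TAC. They went from 22314.4 to 29135.1 for KO sham and from 55592.3 to 69233.9 for KO TAC. TAC groups lay above sham groups with no overlap, whereas Myl7 and the brighter Myl4 probe set had their lowest arrays in WT TAC. Nppa rose with TAC in KO (1.24 ± 0.16, limma adjusted p = 0.000659) and had 1.03 ± 0.16 in WT (adjusted p = 0.107), a value that passed with trend and robust (adjusted p = 0.00441) and without WT sham replicate 1 (adjusted p = 0.0315). It was higher in KO than WT under TAC (0.67 ± 0.16, adjusted p = 0.0356), and had 0.45 ± 0.16 in sham (adjusted p = 0.326). The call under TAC was kept in 13 of 26 alternatives. It was lost without WT sham replicate 2, WT TAC replicate 1, 2 or 4, or any KO TAC replicate (adjusted p = 0.0506 to 0.103).

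Other calls among the 9 tested atrial genes were falls. Stard10, a lipid transfer protein, had signals of 760.7 to 1029.4 in KO TAC and 1177.4 to 1448.3 in WT TAC (-0.62 ± 0.13, limma adjusted p = 0.0195). Its call was lost without WT TAC replicate 2 or 4 or KO TAC replicate 2 or 4 (adjusted p = 0.0521 to 0.0747) and with arrays centred on their medians (adjusted p = 0.179). Kcnj5, a subunit of the acetylcholine-gated potassium channel, fell with TAC in KO (-0.69 ± 0.13, adjusted p = 0.01), from 666.4 to 908.6 in KO sham to 434.9 to 508.5 in KO TAC. With probe sets averaged it had -0.23 (adjusted p = 0.81), and centring on medians also ended the call (adjusted p = 0.114). For the interaction, Pam, an enzyme that amidates peptides and a major protein of atrial granules, had the smallest p (-2.23 ± 0.70, adjusted p = 0.348). The list thus had 1 gene higher and 1 lower for KO against WT in TAC, and 1 higher and 1 lower for TAC in KO, with list medians of -0.08 and -0.38 beside 0.03 and 0.00 for all genes.

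Genes that work with the light chains moved in few cases. Of 10 tested myosin light chain and kinase genes outside the set, Myl1, an essential light chain of fast skeletal muscle, was higher in KO sham than WT sham (0.93 ± 0.19, limma adjusted p = 0.0311), higher in KO TAC than WT TAC (1.63 ± 0.19, adjusted p = 0.00023) and higher in KO TAC than KO sham (1.09 ± 0.19, adjusted p = 0.00703). Among WT arrays its signals were 1978.7 to 3621.3 after sham and 3571.5 to 4417.5 after TAC, and among KO arrays 4756.7 to 6689.4 and 9401.1 to 13843.3. The sham call ended, with an adjusted p of 0.0503 to 0.115, on leaving out KO sham replicate 1, 2 or 4 or WT sham replicate 3 or 4. It was kept in 17 of 26 alternatives, and with arrays centred on medians the adjusted p was 0.152. Within groups the slope of Myl1 was 0.00 ± 0.05 log2 per unit of index (SE, adjusted p = 1). Mylk4, a myosin light chain kinase, fell with TAC in KO (-0.58 ± 0.14, adjusted p = 0.0385). That call was lost without WT sham replicate 2, WT TAC replicate 1, KO sham replicate 1, 2 or 3, or any KO TAC replicate (adjusted p = 0.0514 to 0.116). It was kept in 12 of 26 alternatives, and centring on medians gave an adjusted p of 0.25. The medians of the 10 genes were -0.03, -0.26, 0.01 and -0.10 for KO against WT in sham and TAC and for TAC against sham in WT and KO.

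Sarcolipin's partners around the calcium pump were nearly all without a call, in comparisons that called at most 2.57% of all genes. Of 8 tested genes of the pump and its regulators, Hrc, a calcium-binding protein of the sarcoplasmic reticulum, was lower in KO TAC than WT TAC (-0.38 ± 0.09, limma adjusted p = 0.041). The call was kept in 5 of 26 alternatives. It was lost without any 1 array except WT sham replicate 1 and WT TAC replicate 1 (adjusted p = 0.0526 to 0.133), and with arrays centred on their medians the value was -0.19. The list median in that comparison was -0.22, beside 0.03 for all genes.

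The pathways of the secreted and nuclear members gave no calls. None of the 17 tested genes of Bmp10 signalling, which included receptors, Smad proteins and Id targets, passed in any of the 5 comparisons, with 3, 2, 1, 3 and 2 genes at an unadjusted p under 0.05 in KO against WT in sham and TAC, TAC in WT and KO, and the interaction. The same was true of 8 tested genes of the Nr2f family, its partners and downstream genes (1, 0, 0, 2 and 0 genes unadjusted), and of 6 tested genes of the Dickkopf and Wnt pathway (0, 3, 0, 3 and 0 genes unadjusted). Of all 10916 genes, limma called 0.742%, 2.46%, 0%, 2.57% and 0% in the same order. Those at an unadjusted p under 0.05 were 930, 1794, 832, 1742 and 1128. At such shares, lists of this size can be without a call, and nothing is read from its absence. In the Dickkopf and Wnt list, 5 of 6 genes were above 0 for KO against WT in TAC (median 0.31, beside 0.03 for all genes). All 6 were above 0 for TAC in KO (median 0.37, beside 0.00). In these comparisons the medians were 0.03 and 0.10 for Bmp10 signalling, and 0.06 and -0.12 for the Nr2f list. Shifts of whole lists were not tested.

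A fit with 1 coefficient per group and the index as a covariate then asked which other genes follow the atrial signal within groups. It called 0% of 10912 genes outside the index (limma, Benjamini-Hochberg), with 394 at an unadjusted p under 0.05. Of 105 tested genes of the gene and marker lists, 0 were called, and 6 had an unadjusted p under 0.05. These were Sfrp2 (0.17 log2 per unit of index) and Axin2 (0.17) of the Wnt pathway, Npr3 (0.18) and Vwf (0.14) of endocardium and vessels, Myh11 of smooth muscle (0.24) and Mylk4 (-0.08), all with an adjusted p of 1. The smallest p was that of Kcna5 (-0.09 ± 0.07) in the atrial list and of Irx4 (-0.07 ± 0.06) in the ventricular list, both with an adjusted p of 1.

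The genes most like the index were chosen by Pearson's r of deviations from group means over the 16 arrays. They were Neu1 (0.847), Cbr1 (0.830), Tmem45a (0.824), Prrt1 (0.824), Atp7a (0.802), Plcg1 (0.801), Foxp2 (0.778), Pgap1 (0.775), Car9 (0.772) and Usp53 (0.768). Their amplitude was small beside that of Myl7. Neu1, a lysosomal sialidase, ranged from 401.2 to 593, while Tmem45a, a membrane protein, ranged from 67.9 to 470.3 and changed by 0.33 ± 0.07 log2 per unit of index. The lowest r were those of Irf8 (-0.854), Pnmal2 (-0.826), Zmynd19 (-0.784), Prrg3 (-0.750) and Prorp (-0.746). No gene outside the index exceeded an r of 0.9. All 15 had an adjusted p of 1 for the slope, so these names describe an ordering only.

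Markers of other cell types are given beside the atrial values. The only marker list genes called were Lum and Col3a1 of fibroblasts, C1qa, C1qb and C1qc of macrophages, Alas2 of the erythroid list, Krt18 of mesothelium and Myl1, which is also in the skeletal muscle list. Lum was higher in KO TAC than WT TAC (0.60 ± 0.11, limma adjusted p = 0.0085) and KO sham (0.86 ± 0.11, adjusted p = 0.000659). Col3a1 was higher in the same comparisons (0.91 ± 0.18, adjusted p = 0.0135, and 1.16 ± 0.18, adjusted p = 0.00284). Against WT TAC, both lost their call with 3 arrays omitted whose spike-in signals were extreme (adjusted p = 0.126 for Lum and 0.0779 for Col3a1) and with the index as a covariate (adjusted p = 0.0576 and 0.0714). C1qb (0.64 ± 0.10, adjusted p = 0.00428), C1qc (0.53 ± 0.13, adjusted p = 0.0402), C1qa (0.48 ± 0.12, adjusted p = 0.0438) and Alas2 (1.07 ± 0.22, adjusted p = 0.0189) were higher in KO TAC than WT TAC. Krt18 rose with TAC in KO (1.35 ± 0.32, adjusted p = 0.0391). The lists did not all move as these genes did. Of 8 fibroblast genes, 5 were above 0 for KO against WT in TAC (lowest -0.21, median 0.04, beside 0.03 for all genes). For TAC in KO, 5 were above 0 as well (lowest -0.27, median 0.32). All 6 macrophage genes were above 0 for KO against WT in TAC. Of 3 tested mesothelium genes, 2 were above 0 for TAC in KO and the lowest was at -0.96. Alas2 was the 1 erythroid gene tested. Calls were lost without 14 single arrays for C1qa (all but WT sham replicate 3 and WT TAC replicate 2, adjusted p = 0.0541 to 0.122) and 12 for C1qc (all but WT TAC replicate 2, KO sham replicates 1 and 3 and KO TAC replicate 3, adjusted p = 0.0519 to 0.116). Krt18 lost its call without WT sham replicate 4, WT TAC replicate 2, KO sham replicate 2 or 3 or any KO TAC replicate (adjusted p = 0.0504 to 0.117), and Alas2 without KO TAC replicate 2 (adjusted p = 0.0654). The call of Alas2 also ended without the 3 arrays (adjusted p = 0.247) and with no filter on dim genes (adjusted p = 0.0551). That of C1qb ended with probe sets averaged (adjusted p = 0.0542). Those of Krt18 and C1qc were kept in 14 and 8 of 26 alternatives, and Krt18 had an adjusted p of 0.199 without the 3 arrays.

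Summed signals of the macrophage list (6 of 6 genes tested) were 14115 to 15797 for WT sham and 13613 to 16830 for WT TAC, against 17679 to 19151 for KO sham and 18310 to 23860 for KO TAC, so both KO groups lay above both WT groups. Summed fibroblast signals (8 of 8 tested) were 68052 to 76698, 65679 to 85657, 66251 to 78451 and 78017 to 90627. Mesothelium markers, 3 of 10 tested, summed to 753 to 1180, 962 to 1299, 896 to 1103 and 1080 to 1299. Skeletal muscle markers, 3 of 10 tested, summed to 2849 to 4526, 4562 to 5398, 5695 to 7797 and 10040 to 14379, and Myl1 made up most of each sum. Of conduction and nodal markers 1 of 6 was tested, of adipocyte markers 0 of 5, and of lung epithelium markers 2 of 5. The part of these cell types in the atrial signals was not tested beyond the index fit, in which none of their tested genes was called.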

How the data were processed

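Biotin-labelled RNA from each sample was measured on 1 of 16 Affymetrix mouse 430 2.0 arrays, per the labels' protocols. The deposited values are linear signal intensity from GCOS 1.4, per the submitters' processing notes; settings and detection calls are not stated in them. Each array had been scaled, since its mean without the lowest and highest 2 percent of values was 499.6 to 500. Such scaling ties each gene to the sum of the others. A floor of 11.9, which is the 10th percentile, was applied before log2.

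Of 45101 probe sets, 34945 had 1 gene symbol, 932 several, 9160 none, and 64 were controls. The annotation is that of the array's platform, and 34741 probe sets were updated through GRCm38.p6 gene IDs. A gene was represented by its probe set of highest mean, and the dimmest 40% of genes were left out. The fit was made with limma 3.58.1 (R 4.3.3) and gave each of the 4 groups its own coefficient. Slopes on the atrial index were fitted with the index added. Tests were two-sided with Benjamini-Hochberg adjustment, and genes were called at an adjusted p under 0.05. Correlations of list genes were tested over all 331776 arrangements of arrays within groups. Steps were tested on simulated data, in which the planted slopes on the index were steeper than those described here. That check does not show that slopes of the size seen would be found.

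The members and the 19 lists (173 genes, 15 with no probe set of their own) were chosen with earlier results of these data known. Besides the members, the text names up to 4 called genes of each list per comparison, the gene of smallest p in the atrial and ventricular lists where none was called, and the 10 genes most and 5 least like the index, without unnamed transcripts. Additional genes of the atrial and ventricular lists and those at an unadjusted p under 0.05 are named after their values were seen. The number of arrays limits the precision. Alternatives were other normalizations, floors, filters, probe set rules, variance models, a replicate block, the index as a covariate, left-out members of the index and left-out arrays. They included leaving out together 3 arrays with extreme spike-ins (KO TAC replicates 2 and 3, WT TAC replicate 3).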

Additional observations from a re-analysis of the deposited data

Results flagged for a closer look

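In each group of 4 arrays, the log2 signal of each of 49 probe sets or genes was checked for 1 array far from the other 3, and 10 of 196 checks found one, where chance gives about 1 in 20. Among the atrial genes, the brighter Dkk3 probe set was at 4.54 in KO sham replicate 2, with the next array at 6.93. KO sham replicate 2 was also the lowest of its group for Myl7, Myl4 and Sln. The dim Sln probe set was at 5.69 in WT sham replicate 3, with the next at 4.49. Each of 2 dim Nr2f2 probe sets was at the floor, 3.57, in WT TAC replicate 3, with the next arrays at 7.14 and 6.30.

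Among genes outside the set, Myl2 was at 16.27 in KO sham replicate 3 (next 16.43), Kcna5 at 10.77 in KO sham replicate 1 (next 10.16), and Lum at 13.06 and Col3a1 at 13.34 in KO TAC replicate 2 (next 12.89 and 13.84). Among the genes most like the index, Atp7a was at 7.98 in WT sham replicate 4 (next 8.52) and Car9 at 6.08 in KO sham replicate 2 (next 7.45).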

How the results depend on the processing

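The differences of the atrial index between groups kept their sign in all 110 alternative values, and each moved by less than the spread between replicates. KO against WT in TAC fell from 1.82 to 1.00 with probe sets averaged. That spread (SD of 1.47 for the index, 2.25 for Myl7 and 2.39 for Sln) is wide beside the differences. The Myl7 difference in sham thus counts as not moved at 0.40 in place of 1.47, and such counts do not show that the differences are stable. Of the alternative values of single members, 657 moved by less than the spread of the member and 3 by more. These were Nr2f2 at 0.24 and 0.13 for KO against WT in sham and TAC with probe sets averaged, and at 0.56 for TAC in KO when the 3 arrays with extreme spike-ins were left out. The interaction of Myl4 (0.42) was -0.17 with probe sets averaged. Genes called for the index slope were 0 in all 30 alternatives, and those at an unadjusted p under 0.05 ranged from 292 to 791, the latter with no filter on dim genes. Of the other atrial genes, 2 were called for KO against WT in TAC. Centring on medians, averaging probe sets, the replicate block and the index as a covariate each gave 1, and both the fit with no filter and that without the 3 arrays gave 0. Leaving out single arrays gave 0 to 2, with 0 without WT TAC replicate 2 or 4 or KO TAC replicate 2 or 4. For TAC in KO, 2 were called, centring, averaging and the omission of the 3 arrays each gave 1, and quantile normalization and trend and robust each gave 3. For TAC in WT, 0 were called, trend and robust gave 1, and leaving out single arrays gave 0 to 1, with 1 without WT sham replicate 1. The cause was not tested. Same-numbered arrays did not deviate together (correlations of -0.19 to 0.14 over 24 pairs, and 15 of 48 best matches had the same number), so the numbers are not taken as pairs. Of the alternative values of named genes, 606 stayed on their side of the threshold, 126 lost a call and 4 gained one. The 606 include values of genes that were not called at first, so they do not measure how well the calls held. Among the calls, that of Hrc was kept in 5 of 26 alternatives and that of C1qa in 6. Those of Nppa, Lum and Col3a1 for TAC in KO, and of Myl1 for KO against WT in TAC, were kept in all 26. Signals near the floor limit what can be said of Bmp10, Dkk3 and low Sln values.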
